A study of Mus musculus with 14 samples.

Results

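Interferon-stimulated genes are the genes that cells switch on when type I interferon reaches its receptor. A list of 38 of them was followed here in mice with and without the lymphotoxin beta receptor. The members were taken by gene symbol from a list chosen with earlier results of these data known. The probe sets that carry 1 symbol were averaged per gene. This gave 36 measured members of 22180 genes in all. Of the members, 33 rest on 1 probe set, Ifi35 and Lgals3bp on 2 and Sp100 on 4. The 2 others, Dtx3l and Ifi44, had no probe set with a single symbol and were not analysed here.

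The 4 groups were ApoE/LTbR double-deficient CD115+ blood cells (3 preparations), ApoE-deficient CD115+ blood cells (3), ApoE/LTbR double-deficient aorta (4) and ApoE-deficient aorta (4). All mice were males that lacked apolipoprotein E, so the controls were atherosclerosis-prone littermates and not wild-type mice. They ate a Western type diet for 4 weeks from 8 weeks of age and were 12 weeks old. CD115+ cells, which carry the receptor for macrophage colony-stimulating factor, were taken from blood by magnetic beads after a density gradient, and aortas kept their surrounding fat. ApoE-deficient CD115+ replicates 3 and 4 were each a pool of 2 littermate samples, and every other sample was a single RNA preparation. No label says that samples with the same replicate number share a litter or that blood and aorta came from the same mouse, so p-values measure the spread between these preparations. The values below are log2 signals that the authors had centred, so that 0 is a probe set's median across all arrays of the same tissue. Levels can therefore not be compared between genes or tissues, and all differences are double-deficient minus ApoE-deficient. In whole tissue and in sorted preparations alike, fewer cells of a type and less RNA per cell cannot be told apart. The number of arrays limits the precision.

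Type I interferon binds a receptor on nearly all cells and activates transcription factors that bind interferon response elements beside target genes. The products detect foreign nucleic acid, block viral entry and replication, tag proteins with the ubiquitin-like ISG15, and feed back on the receptor. Monocytes and macrophages respond strongly to interferon, and such genes are also expressed in atherosclerotic arteries. The lymphotoxin beta receptor belongs to the tumour necrosis factor receptors and is found on stromal and myeloid cells.

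The targeted gene, Ltbr, was lower in both tissues of the double-deficient mice. In CD115+ cells it had -0.07, -0.62 and -0.44 in double-deficient replicates 1 to 3, against 0.55, 0.07 and 0.40 in ApoE-deficient replicates 1, 3 and 4. In aorta it stood between -1.29 and -0.49 in double-deficient samples and between 0.49 and 0.89 in ApoE-deficient samples. The groups did not overlap in either tissue, though the nearest CD115+ values were -0.07 and 0.07. In CD115+ cells the difference was -0.72 (SE 0.18, adjusted p = 0.976 in limma). In aorta it was -1.64 (SE 0.17, adjusted p = 0.0679 in limma). The targeted gene itself thus did not pass the test over all genes in either tissue. Where the probe set lies relative to the deleted part is not known.

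The response element was looked for in the promoters, since the listed genes were chosen by symbol and not by sequence. The motif searched was GAAA, any 2 bases (NN), then GAAA, on both strands (TTTC, NN, TTTC on the other), in the 250 bases before and 50 bases after each RefSeq start in GRCm38.p6. Copies may overlap and were each counted. Of the 38 listed members 29 had a promoter in the RefSeq table, and 13 of the 29 (44.8%) held the motif at 1 start or more, against 3.99% of all 27025 genes with a promoter of this length. Of the 12 members whose CD115+ groups did not overlap (described below), 8 had a promoter in the table and 5 of these held the motif. Their stretches are shown first, followed by Ifit1 and Rsad2, which hold the motif while their CD115+ groups overlapped. Each is written 5′ to 3′ on the strand of the gene, with the motif in capitals.

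Isg15, chr4:156200845-156200926, minus strand: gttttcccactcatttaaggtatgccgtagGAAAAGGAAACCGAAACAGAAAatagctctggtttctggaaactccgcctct
Bst2, chr8:71537557-71537632, minus strand: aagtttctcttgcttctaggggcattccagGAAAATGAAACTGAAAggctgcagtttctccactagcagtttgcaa
Cxcl10, chr5:92349063-92349132, minus strand: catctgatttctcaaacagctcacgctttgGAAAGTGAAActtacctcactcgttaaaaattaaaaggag
Slfn5, chr11:82951917-82951986, plus strand: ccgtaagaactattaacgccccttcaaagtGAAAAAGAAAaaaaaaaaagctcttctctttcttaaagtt
Ifih1, chr2:62646206-62646253, minus strand: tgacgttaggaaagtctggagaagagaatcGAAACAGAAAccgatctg
Ifit1, chr19:34640755-34640843, plus strand: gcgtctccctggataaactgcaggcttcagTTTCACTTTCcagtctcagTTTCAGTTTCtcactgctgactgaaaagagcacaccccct
Rsad2, chr12:26456533-26456602, minus strand: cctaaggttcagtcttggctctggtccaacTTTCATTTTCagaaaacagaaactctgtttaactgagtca

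Isg15 holds 3 overlapping copies, the first at base -78 relative to the start, and Bst2 holds 2 overlapping copies, the first at base -130. In Ifih1 the motif lies after the start, at base 33 of the transcript. Ifit1 and Rsad2 carry it on the other strand. In CD115+ cells 12 of 13 members with it had a negative difference (median -0.22), against 9 of 14 measured members whose promoter in the table lacks it (median -0.15). These are descriptions of letters in a window and of medians, with no test.

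In CD115+ cells most interferon-stimulated genes had lower signal in the double-deficient preparations, by small amounts, and none passed the test over all genes. Of 36 members 30 (83.3%) had a negative difference, against 55.3% of all genes, and the median difference was -0.23, against -0.01 over all genes. Since the list was chosen with earlier results of these data known, such shares describe it and are not independent support. In 12 members every double-deficient preparation lay below every ApoE-deficient one, where this holds for 5.23% of all genes, and in 0 members every one lay above (3.93% of all genes). At an unadjusted p under 0.05 in limma 12 members were lower (2.33% of all genes) and 0 higher (2.06%). A difference of at least 1.25-fold was present downward in 14 members (1.74% of all genes) and upward in 0 (3.18%). After Benjamini-Hochberg adjustment over all 22180 genes 0 members were called, as were 0% of all genes in either direction, and the smallest adjusted p of a member was 0.976 (limma).

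**Figure D1:**
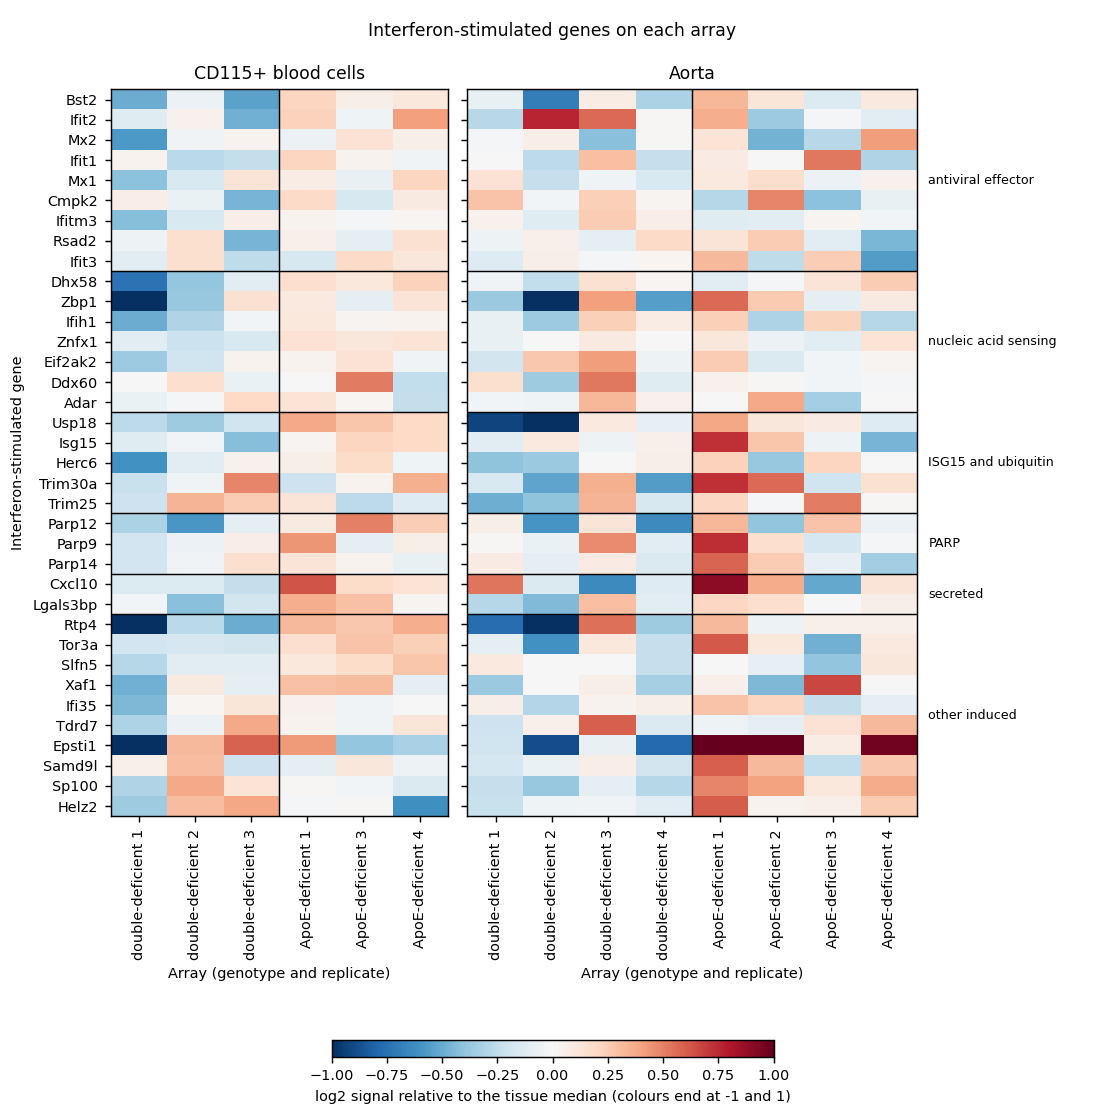
Heat map of the 36 measured members (rows, grouped by role) on each array (columns, double-deficient arrays left of ApoE-deficient ones); colour is the log2 signal relative to the tissue median, with colours ending at -1 and 1. In CD115+ cells double-deficient replicate 1 is below 0 for 32 of 36 members, and in aorta ApoE-deficient replicate 1 is below 0 for 5 of 36.

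Tor3a, an interferon-responsive ATPase of the endoplasmic reticulum, had the smallest p of the members and ranked 4 among all genes. It had -0.19, -0.17 and -0.19 in double-deficient replicates 1 to 3, against 0.17, 0.29 and 0.24 in ApoE-deficient replicates 1, 3 and 4. The 3 double-deficient values were nearly equal and all lay below the others, with a difference of -0.41 (SE 0.05, 95% interval -0.54 to -0.29, adjusted p = 0.976 in limma). Usp18, which removes ISG15 from proteins and dampens the interferon receptor, ranked 6. Its values were -0.27, -0.35 and -0.20 in double-deficient cells and 0.38, 0.28 and 0.20 in ApoE-deficient cells, a difference of -0.56 (SE 0.07, 95% interval -0.73 to -0.38). This is 1.47-fold lower in the double-deficient cells, again with no overlap. Znfx1, a helicase-like sensor of viral RNA, ranked 12 with -0.12, -0.21 and -0.16 in double-deficient cells, against 0.14, 0.12 and 0.14 in ApoE-deficient cells. Its difference was -0.29 (SE 0.05), small and even across preparations. Slfn5, of the Schlafen family, ranked 48 with -0.29, -0.11 and -0.11 in double-deficient cells, against 0.11, 0.18 and 0.28 in ApoE-deficient cells (difference -0.36, SE 0.08).

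Rtp4, a receptor transport protein with antiviral activity, had the largest difference of the members, -0.95 (SE 0.22, 1.93-fold lower in double-deficient cells). Its values were -1.12, -0.27 and -0.49 in double-deficient cells and 0.32, 0.27 and 0.36 in ApoE-deficient cells, so that the double-deficient preparations were spread widely while the others were close together. Without double-deficient replicate 1 the difference was -0.70. Dhx58, a relative of the RIG-I sensor that lacks its signalling domain, was also lowest in double-deficient replicate 1, with -0.74, -0.39 and -0.10 in double-deficient cells against 0.16, 0.10 and 0.23 in ApoE-deficient cells (difference -0.58, SE 0.16). Parp12, an ADP-ribosyltransferase, was lowest in double-deficient replicate 2, with -0.32, -0.58 and -0.09 in double-deficient cells and 0.09, 0.50 and 0.24 in ApoE-deficient cells (difference -0.61, SE 0.16).

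Bst2, or tetherin, which holds budding virus at the cell surface, had -0.50, -0.06 and -0.54 in double-deficient cells and 0.22, 0.06 and 0.11 in ApoE-deficient cells (difference -0.49, SE 0.14). Double-deficient replicate 2 lay close to the ApoE-deficient range. Cxcl10, a chemokine that draws activated T cells, had -0.13, -0.13 and -0.24 in double-deficient cells and 0.63, 0.19 and 0.13 in ApoE-deficient cells (difference -0.48, SE 0.14). Here ApoE-deficient replicate 1 stood above the rest, and without it the difference was -0.33. Lgals3bp, a secreted glycoprotein that binds galectin-3, had -0.03, -0.42 and -0.19 in double-deficient cells and 0.36, 0.30 and 0.03 in ApoE-deficient cells (difference -0.44, SE 0.13). Its 2 probe sets differed by -0.44 each. The groups of these 3 genes did not overlap, and the values nearest to each other were -0.06 and 0.06 for Bst2 and -0.03 and 0.03 for Lgals3bp.

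**Figure D2:**
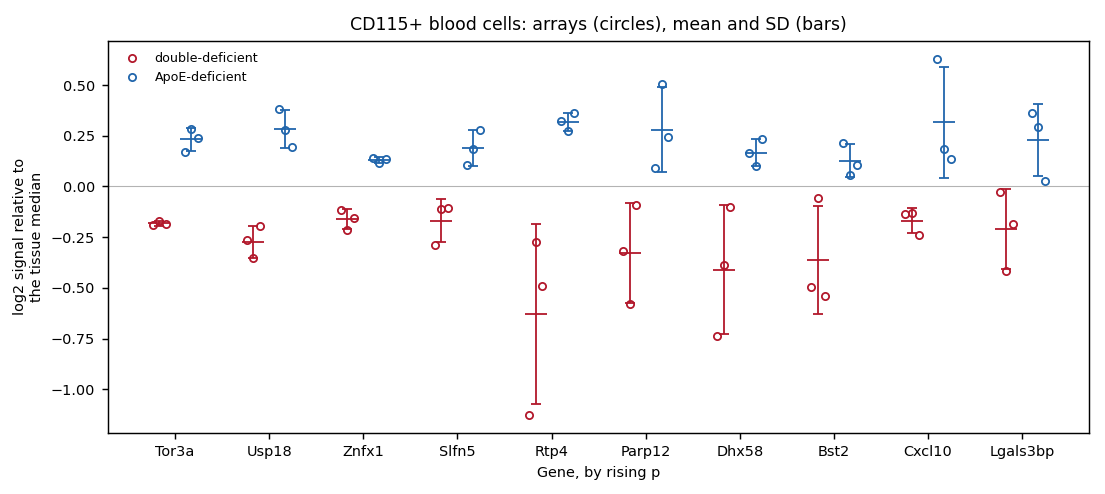
Values of the 10 members of smallest p in CD115+ cells on each array (circles), with mean and SD (bars), double-deficient left of ApoE-deficient for each gene; the vertical axis is log2 signal relative to the tissue median. Every double-deficient circle lies below every ApoE-deficient circle of the same gene, and the double-deficient circles of Rtp4 run from -1.12 to -0.27.

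Taken by role, the antiviral effectors had a negative difference in 9 of 9 measured members in CD115+ cells, with a median of -0.22, and only Bst2 had groups that did not overlap. The IFIT proteins, which bind foreign RNA, were at -0.39 for Ifit2 (SE 0.17), -0.23 for Ifit1 (SE 0.11) and -0.11 for Ifit3 (SE 0.14). The dynamin-like GTPases Mx1 and Mx2 were at -0.22 and -0.24. Rsad2 (viperin, which makes an abnormal nucleotide that stops viral RNA synthesis) and Cmpk2, the nucleotide kinase gene beside it on the chromosome, were at -0.15 and -0.19. Ifitm3, which blocks viral entry from endosomes, was at -0.18. Of the nucleic acid sensors and RNA-binding members 6 of 7 were negative (median -0.29). They were Dhx58 and Znfx1 above, Ifih1 (MDA5, a sensor of long viral RNA) at -0.33, Zbp1 (a sensor of left-handed nucleic acid) at -0.57, the kinase Eif2ak2 (PKR) at -0.22 and Ddx60 at -0.05. The RNA-editing enzyme Adar was at 0.07. Zbp1 had a large mean difference through 1 preparation, with -1.37, -0.38 and 0.15 in double-deficient cells and 0.10, -0.10 and 0.13 in ApoE-deficient cells.

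Of the ISG15 and ubiquitin group 3 of 5 measured members were negative. Isg15 itself was at -0.34 (SE 0.12), with -0.12, -0.03 and -0.43 in double-deficient cells and 0.03, 0.22 and 0.20 in ApoE-deficient cells. Herc6, the ligase that attaches ISG15 in mice, was at -0.29, while the ubiquitin ligases Trim25 and Trim30a were at 0.21 and 0.02. The PARP family members Parp9 and Parp14 were at -0.20 and -0.05, beside Parp12 above. Of the 10 other induced genes 7 were negative. Xaf1 was at -0.34, Ifi35 at -0.11, Tdrd7 at -0.03 and Epsti1 at 0.00 (-0.0018), while Samd9l was at 0.06, the nuclear body protein Sp100 at 0.13 and the helicase Helz2 at 0.32 (SE 0.26). The members with a positive difference had no group separation.

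The 3 double-deficient preparations shared some low genes and differed in others. Replicate 1 was the lowest of the 6 arrays for 19 of 36 members, replicate 2 for 5 and replicate 3 for 8. Replicate 3 was also the highest array for 9 members. In replicate 1 Zbp1, Epsti1 and Rtp4 were at -1.37, -1.20 and -1.12, Dhx58 at -0.74, Herc6 and Mx2 at -0.61 and -0.57, and Bst2 at -0.50. In replicate 3 the low genes were Bst2 at -0.54, Rtp4 at -0.49, Ifit2 at -0.48, Cmpk2 at -0.46, Rsad2 at -0.46 and Isg15 at -0.43, whereas Epsti1 and Trim30a stood at 0.59 and 0.49. Tor3a, Usp18 and Znfx1 were below 0 by similar amounts in all 3. Without double-deficient replicate 1 the members' median difference was -0.14, with 26 of 36 negative.

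Markers of cell types also differed between these preparations, though 0 passed the adjusted threshold. The 6 measured markers of Ly6C-high monocytes, the inflammatory class of blood monocytes, all had a negative difference (median -0.70). Their mean was -1.01, -0.07 and -0.16 in double-deficient replicates 1 to 3, against 0.46, 0.01 and 0.68 in ApoE-deficient replicates 1, 3 and 4. The mean of the interferon-stimulated genes was -0.34, -0.06 and -0.05 in double-deficient cells, against 0.13, 0.08 and 0.05 in ApoE-deficient cells, so that double-deficient replicate 1 was lowest for both lists. Ly6c2 was at -1.30 (SE 0.51) and Ccr2 at -0.50 (SE 0.25). The 8 markers of Ly6C-low monocytes had means of -0.45, -0.10 and 1.00 in double-deficient cells, against 0.34, -0.20 and 0.02 in ApoE-deficient cells. For 8 general monocyte markers, Ccr2 among them, the means were -0.67, -0.16 and 0.48, against 0.30, -0.12 and 0.08. Double-deficient replicate 1 was thus the lowest array for these lists too, and not for the Ly6C-high markers alone. The same replicate was the highest array for the adipocyte and smooth muscle markers. Adipocyte means were 0.34, -0.38 and -0.29 in double-deficient cells, against -0.10 to 0.17 in ApoE-deficient cells. Smooth muscle means were 0.20, -0.32 and -0.29, against -0.04 to 0.11. All 5 measured B cell markers had a positive difference (median 1.45) with groups that overlapped, and means of -0.39, 1.92 and 1.06 in double-deficient cells, against 0.39, -1.04 and -0.90 in ApoE-deficient cells. All 5 measured T cell markers were positive too (median 0.41), with means of 0.07 to 0.50 in double-deficient and -0.27 to -0.04 in ApoE-deficient cells. Neutrophil and platelet marker means were highest in double-deficient replicate 2 (1.55 and 1.51). Means of the 7 markers of plasmacytoid dendritic cells, strong producers of type I interferon, lay between 0.00 and 0.10 in double-deficient cells and between -0.07 and 0.02 in ApoE-deficient cells. The part of these cells in the differences of the interferon-stimulated genes was not tested.

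**Figure D3:**
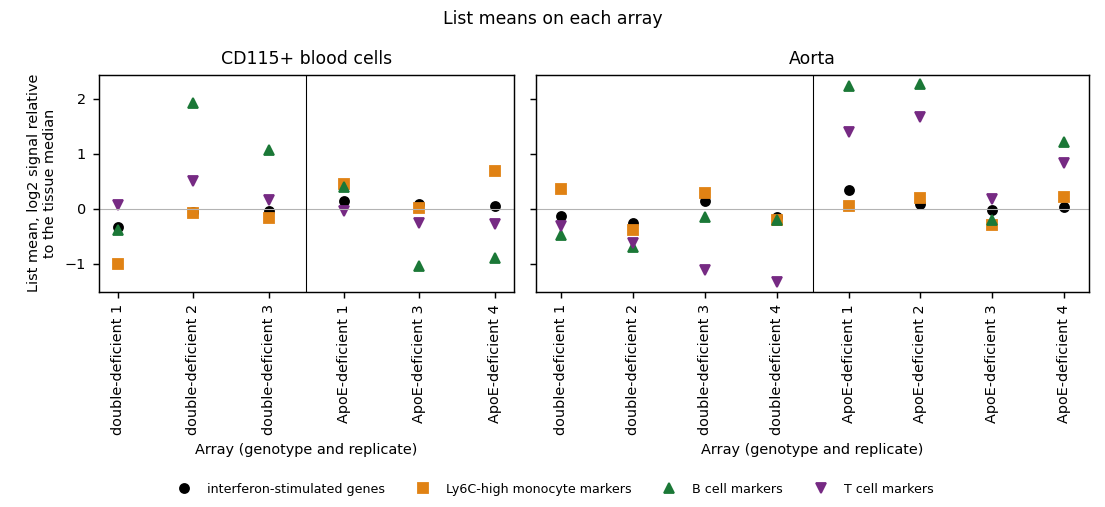
Mean over the measured genes of 4 lists on each array, as log2 signal relative to the tissue median, with double-deficient arrays left of ApoE-deficient ones in each tissue. In CD115+ cells the interferon-stimulated genes and the Ly6C-high markers are both lowest in double-deficient replicate 1 (-0.34 and -1.01), and in aorta the B cell markers are above 1 in ApoE-deficient replicates 1, 2 and 4.

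The rest of the interferon pathway was read from lists. Of 12 measured signalling genes 4 were negative in CD115+ cells (median 0.08). Irf7, the factor that amplifies interferon production and is itself interferon-induced, was at -0.48 (SE 0.15) with groups that did not overlap, while the receptor kinase Jak1 was at 0.30 (SE 0.21) and Irf1 at 0.31 (SE 0.22). Of 11 sensing genes 10 were negative (median -0.17), with Myd88 at -0.31, Mavs at -0.21 and Cgas at -0.08. The 16 measured interferon ligand genes had a median of 0.02, with Ifnab at 0.13, Ifna1 at 0.23 and Ifna6 at 0.09. Groups did not overlap in 5 ligand genes that were higher (3.93% of all genes) and in 1 that was lower (5.23%). Of the oligoadenylate synthetase family, whose products activate RNA decay, 8 of 11 were negative (72.7%, against 55.3% of all genes). In 4 of them, all lower, groups did not overlap (5.23% of all genes). Oas1g was at -1.67 (SE 0.17), Oas2 at -1.09 (SE 0.27) and Oas1b at -0.51 (SE 0.15), and near-identical Oas1 copies can share signal. In the Ifi200 family 5 of 9 were negative, with Ifi205 at -1.67 (SE 0.25), Ifi204 at -0.64 (SE 0.38) and Ifi213 at -0.30 (SE 0.15). Genes best known as targets of interferon gamma had a median of -0.08 over 13, with the class II activator Ciita at 0.48, Gbp3 at -0.45 and Irgm1 at -0.24. None of these genes passed the adjusted threshold.

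In aorta most of the same genes also had lower signal in the double-deficient samples, and again none passed the test over all genes. Of 36 members 26 (72.2%) had a negative difference, against 47.2% of all genes, with a median of -0.12, against 0.01 over all genes. Without ApoE-deficient replicate 4 the members' median was -0.23, and without each other array in turn it lay between -0.18 and -0.09. Groups did not overlap in 3 members that were lower (2.11% of all genes) and in 0 that were higher (2.19%). At an unadjusted p under 0.05 in limma 3 members were lower (3.81% of all genes) and 0 higher (3.91%). Downward differences of at least 1.25-fold were present in 10 members (6.74% of all genes) and upward ones in 0 (6.48%). With adjustment over all genes 0 members were called, against 0.00451% of all genes lower and 0% higher, and the smallest adjusted p of a member was 0.296 (limma).

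Sp100 had the smallest p in aorta and ranked 30 among all genes. It had -0.23, -0.38, -0.10 and -0.29 in double-deficient replicates 1 to 4, against 0.49, 0.40, 0.11 and 0.37 in ApoE-deficient replicates 1 to 4. The groups did not overlap, and the difference was -0.59 (SE 0.10, 95% interval -0.83 to -0.36, adjusted p = 0.296 in limma). Without ApoE-deficient replicate 3 it was -0.67 and passed the threshold (adjusted p = 0.0448 in limma), while the adjusted p ran up to 0.610 over the other alternatives. Its 4 probe sets differed by -0.82, -0.16, -0.43 and -0.96, and another probe set, shared with Gm7609, was left out because it could belong to either gene. Epsti1 had the largest difference in aorta, -1.66 (SE 0.42, 3.15-fold lower in double-deficient aorta, adjusted p = 0.461 in limma). Its values were -0.20, -0.89, -0.07 and -0.78 in double-deficient aortas and 2.09, 1.57, 0.07 and 0.96 in ApoE-deficient aortas, where replicate 3 stood far below the other three. Helz2 had -0.22, -0.04, -0.03 and -0.10 in double-deficient aortas and 0.61, 0.03, 0.05 and 0.26 in ApoE-deficient aortas (difference -0.34, SE 0.13). ApoE-deficient replicates 2 and 3 lay just above the double-deficient range, and without ApoE-deficient replicate 1 the difference was -0.21.

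Usp18, Bst2 and Trim30a overlapped between the groups in aorta. Usp18 had -0.92, -1.18, 0.10 and -0.08 in double-deficient aortas and 0.39, 0.11, 0.08 and -0.13 in ApoE-deficient aortas (difference -0.63, SE 0.29). Its low values came from double-deficient replicates 1 and 2, and without replicate 2 the difference was -0.41. Bst2 had -0.07, -0.69, 0.07 and -0.32 in double-deficient aortas and 0.33, 0.12, -0.13 and 0.10 in ApoE-deficient aortas (difference -0.36, SE 0.17, or -0.21 without double-deficient replicate 2). Trim30a, which restrains inflammatory signalling, had -0.16, -0.53, 0.35 and -0.56 in double-deficient aortas and 0.73, 0.57, -0.20 and 0.16 in ApoE-deficient aortas (difference -0.53, SE 0.26).

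**Figure D4:**
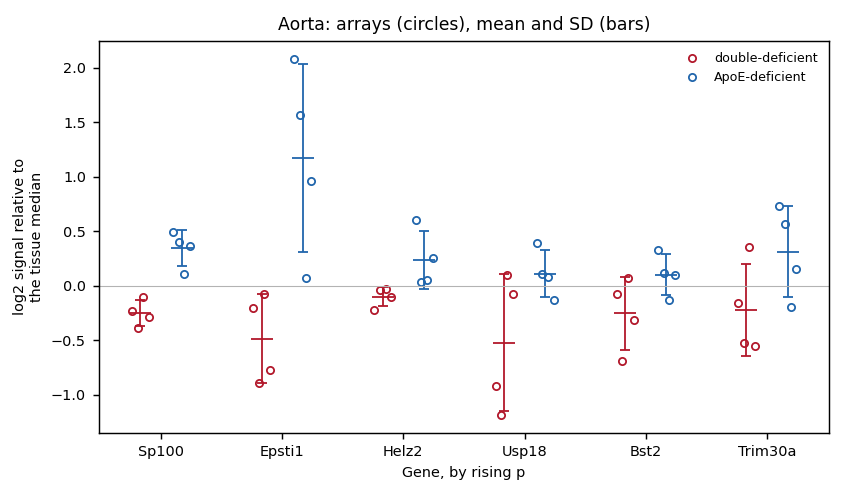
Values of the 6 members of smallest p in aorta on each array (circles), with mean and SD (bars), double-deficient left of ApoE-deficient for each gene; the vertical axis is log2 signal relative to the tissue median. Sp100, Epsti1 and Helz2 have groups that do not overlap, and the ApoE-deficient circles of Epsti1 run from 0.07 to 2.09.

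By role, the ISG15 and ubiquitin group had a negative difference in 5 of 5 measured members in aorta (median -0.36), with Trim25 at -0.36, Herc6 at -0.19 and Isg15 at -0.13 beside those above. The PARP members were at -0.30 for Parp12, -0.12 for Parp14 and -0.11 for Parp9, and the secreted products at -0.32 for Cxcl10 (SE 0.33) and -0.24 for Lgals3bp. Of the antiviral effectors 4 of 9 were negative (median 0.04), with Mx1 at -0.14, Ifit1 at -0.12 and Mx2 at -0.04, while Ifit2 was at 0.30, Cmpk2 at 0.20, Ifitm3 at 0.12, Rsad2 at 0.07 and Ifit3 at 0.04. Of the sensors 3 of 7 were negative: Zbp1 was at -0.63 (SE 0.32), Dhx58 at -0.09 and Znfx1 at -0.02. Ifih1 was at 0.00, Ddx60 at 0.05, Adar at 0.07 and Eif2ak2 at 0.09. Of the other induced genes 9 of 10 were negative, with Rtp4 at -0.54 (SE 0.34), Samd9l at -0.33, Tor3a at -0.29, Xaf1 at -0.23, Ifi35 at -0.08 and Tdrd7 at 0.00 (-0.0048). Slfn5 was at 0.06. The members' mean was -0.12, -0.26, 0.15 and -0.15 in double-deficient replicates 1 to 4, against 0.34, 0.09, -0.02 and 0.03 in ApoE-deficient replicates 1 to 4. Double-deficient replicate 3 thus lay among the ApoE-deficient arrays, and ApoE-deficient replicate 1 was the highest array for 17 of 36 members. Without ApoE-deficient replicate 1, 20 of 36 members were negative.

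Lymphocyte markers also differed between the aortas, though 0 of the B and T cell markers passed the adjusted threshold. All 5 measured B cell markers had a negative difference (median -1.72), with means of -0.48, -0.69, -0.14 and -0.20 in double-deficient aortas, against 2.24, 2.26, -0.20 and 1.22 in ApoE-deficient aortas, where replicate 3 lay within the double-deficient range. All 5 measured T cell markers were negative too (median -1.90), with means of -1.33 to -0.31 in double-deficient and 0.18 to 1.67 in ApoE-deficient aortas. Like these markers, Epsti1 was high in ApoE-deficient replicates 1, 2 and 4 and low in replicate 3. The part of lymphocytes in the differences of the members was not tested. Of the 7 markers of plasmacytoid dendritic cells 4 were negative and 3 positive, with means of -0.59 to -0.10 in double-deficient and 0.22 to 1.20 in ApoE-deficient aortas. Klk1 had by far the largest of these differences, -3.15 (SE 1.34). The medians over the 7 markers overlapped between the groups, with 0.002 in double-deficient replicate 2 and -0.007 in ApoE-deficient replicate 1. Csf1r, the gene of CD115, was at -0.02 (SE 0.25). In the signalling list 8 of 12 genes were negative (median -0.21), with the feedback inhibitor Socs1 at -0.58 (SE 0.16), Irf1 at -0.40 (SE 0.14) and Irf8 at -1.41 (SE 0.57). Of the sensing genes 7 of 11 were negative, with Tlr7 at -1.13, Tlr9 at -0.73 and Ddx58 at -0.37. The ligand genes had a median of -0.02, with Ifna1 at 0.22, Ifna4 at -0.40 and Ifna11 at -0.07. The oligoadenylate synthetases had a median of -0.14 (Oas1b -0.50, Oas2 -0.29, Oas1c -0.16) and the Ifi200 family one of -0.75, with Mndal at -1.02 (SE 0.25), Ifi209 at -1.80 (SE 0.51) and Aim2 at -0.97 (SE 0.30). The interferon gamma list had a median of -0.01, with Ido1 at 0.21, Ciita at -0.77 and Irgm1 at -0.36.

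The genotype difference was then compared between CD115+ cells and aorta in 1 fit of the 4 group means. No member passed (0 of 36, smallest adjusted p = 0.591, limma), as did 0% of all genes in either direction. At an unadjusted p under 0.05, 3 members were lower in CD115+ cells than in aorta (3.41% of all genes) and 3 higher (3.49%). Sp100 had 0.13 in CD115+ cells and -0.59 in aorta, a difference between tissues of 0.72 (SE 0.20, 95% interval 0.28 to 1.15). Without double-deficient CD115+ replicate 1 this was 0.90 and passed the threshold (adjusted p = 0.0474, limma). Znfx1 had -0.29 in CD115+ cells and -0.02 in aorta (-0.28, SE 0.10), Slfn5 had -0.36 and 0.06 in the same order (-0.42, SE 0.16), and Dhx58 had -0.58 and -0.09 (-0.48, SE 0.20). Over the 36 members 21 had a negative difference in both tissues, 9 in CD115+ cells alone, 5 in aorta alone and 1 (Adar) in neither. Across the members the correlation of the 2 tissues' differences was low (Pearson r 0.01, Spearman rho 0.10, n = 36 genes, which share arrays and are not independent). With 3 or 4 arrays per group the differences are imprecise, so a low correlation cannot show that they are unrelated. The 12 members with separate groups in CD115+ cells and the 3 in aorta had 0 genes in common. The share of all genes with separate groups in both tissues was not worked out. With so few genes this count is a description and not a result about the members.

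**Figure D5:**
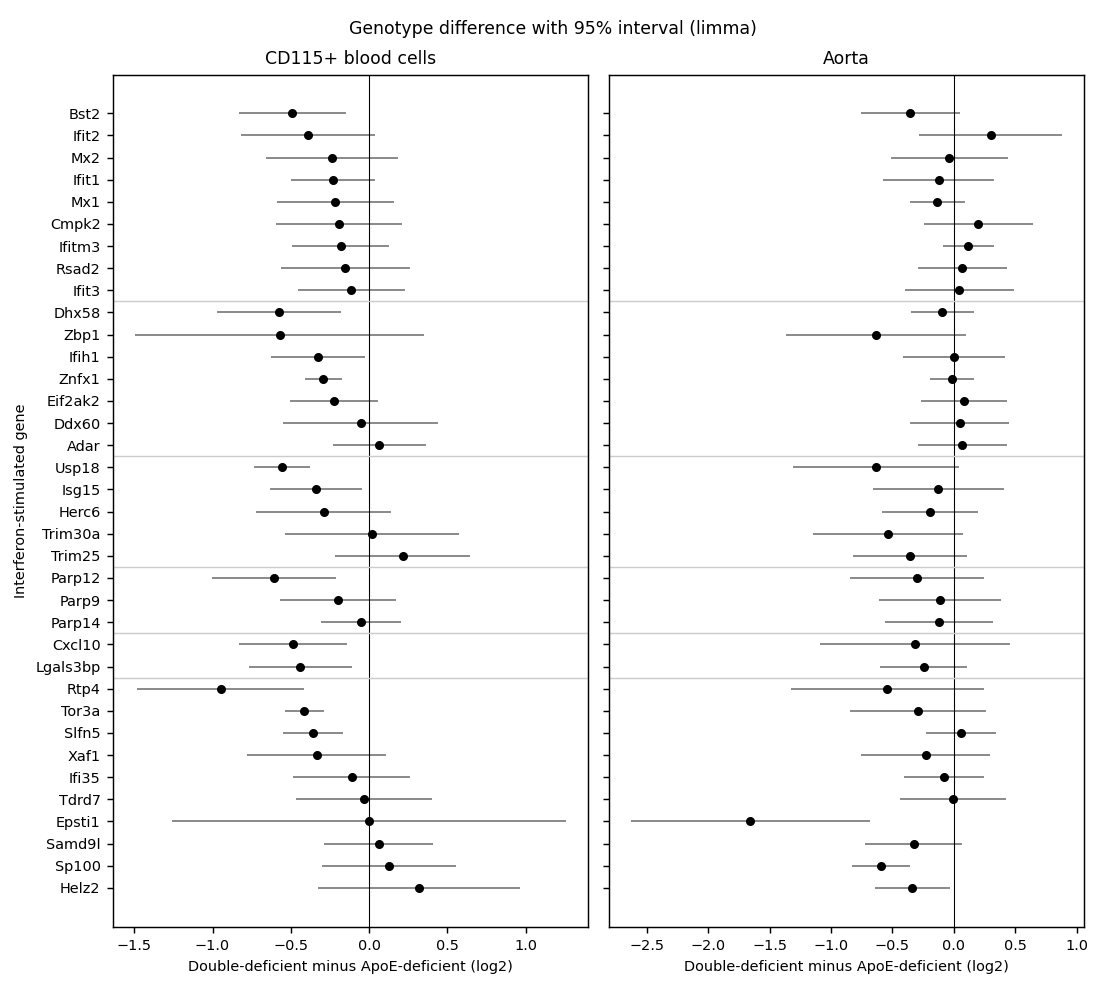
Genotype difference of each measured member (points, double-deficient minus ApoE-deficient, log2) with its 95% interval from limma (lines), in CD115+ cells on the left and aorta on the right; the horizontal scales differ. In CD115+ cells 30 of 36 points lie below 0, and in aorta 26 of 36, where Epsti1 is at -1.66.

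Some members lie next to each other in the genome. Rsad2 and Cmpk2 are neighbours, and in CD115+ cells both were lowest in double-deficient replicate 3 (-0.46 each). Ifit2 and Ifit3 are neighbours, with Ifit1 3 protein-coding genes further on, and Ifit2 and Ifit3 were lowest in that replicate as well (-0.48 and -0.25). Parp14, Dtx3l and Parp9 lie side by side, and the probe set that covers both Dtx3l and Parp9 was left out.

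Signal height could be read only coarsely, from the rounding of the values (explained with the processing). In CD115+ cells 2 of 36 members, Ifitm3 and Zbp1, were at or above a log2 signal of 8 on all arrays (5.56%, against 7.94% of all genes), and in aorta 6 were: Bst2, Ddx60, Ifitm3, Lgals3bp, Rtp4 and Xaf1 (16.7%, against 13.2%). In CD115+ cells 3 of 8 monocyte markers (Csf1r, Lyz2 and Ccr2) reached this height, while Itgam, Spi1, Cd14, Csf2ra and Fcgr1 did not. There 0 of 5 B cell and 0 of 5 T cell markers reached it. All 4 smooth muscle markers and 3 of 4 adipocyte markers reached it there too, and these are not genes of blood monocytes. All 4 of each reached it in aorta.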

How the data were processed

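RNA from 6 CD115+ preparations and 8 aortas was amplified from 1 ng and biotin-labelled for arrays, per the labels' protocols. The authors deposited 1 table of log values, read here as log2, for 33793 probe sets on 14 arrays. The sources used here do not give the log base, the array normalization or the build. In all 33793 probe sets the median per tissue was 0 within 1e-06, which shows that the deposited log2 values were centred on the median within each tissue, probe set by probe set. With an even number of arrays the middle pair are then equal and opposite. Apart from the coarse class of signal height below, the values hold no level, and no filter on dim probe sets was applied.

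A platform annotation gave 23521 probe sets 1 symbol, 1814 several and 8458 none; only the first were used, as the mean per gene. Groups came from titles. Genes were fitted with limma 3.58.1 in R 4.3.3 (lmFit, eBayes) within each tissue, and across tissues in 1 fit of group means, with Benjamini-Hochberg adjustment over 22180 genes and a threshold of 0.05. The fits were tested on simulated data with a shift larger than any member's difference. Whether they find differences of the sizes reported here was not tested. Members, role groups, pathway lists and markers were chosen with earlier results of these data known, as was the 1.25-fold mark. The text names every measured member, array values for the 10 (CD115+) and 6 (aorta) members of smallest p, up to 3 genes per pathway list, and 4 for the difference between tissues; other values were chosen after they were seen.

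Signal height was read from rounding: single-precision numbers at or above 8 are spaced by 2 to the power -20, and lower ones more finely, so a gene whose values were all multiples of that spacing (tolerance 0.1 of it) was read as at or above 8. Some lower genes pass by chance. Promoters came from RefSeq (GRCm38.p6).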

Additional observations from a re-analysis of the deposited data

Results flagged for a closer look

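Of 72 sets of 4 aorta values of the members, 2 held an array far from the other 3 by Dixon's criterion, and chance gives about 1 in 20 sets. Mx2 was at -0.42 in double-deficient aorta replicate 3, with the others between -0.01 and 0.07. Ifi35 was at -0.30 in double-deficient aorta replicate 2, with the others between 0.03 and 0.06. The CD115+ groups hold 3 arrays each and were not examined in this way. No member had a difference between the tissues that passed the threshold.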

How the results depend on the processing

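The differences of the leading members kept their sign under all alternatives run. In CD115+ cells 0 members were called under every alternative, and the median difference lay between -0.28 and -0.19 under other settings and between -0.30 and -0.14 with 1 array left out. The count of 12 at an unadjusted p under 0.05 became 7 with all 4 groups in 1 fit and 6 with single preparations only, and was 10 to 16 with 1 array left out. In aorta this count of 3 became 7 with array weights and 5 with the replicate block. With 1 array left out it was 2 to 10, and members with groups that did not overlap numbered 3 to 7; the highest values, 10 and 7, came without double-deficient replicate 3, and both counts were 5 without ApoE-deficient replicate 3. With 1 array left out, members called were 0 to 1 in aorta (Sp100 without ApoE-deficient replicate 3) and 0 to 1 for the tissue difference (Sp100 without double-deficient CD115+ replicate 1). Fewer samples enter those fits, and other causes were not tested. For the counts at an unadjusted p under 0.05 and of groups that did not overlap, no shares over all genes are given under the alternatives. Leaving out an array can change those shares as well, so such counts are not a result about the members. The replicate block gave medians of -0.28 in CD115+ cells and -0.12 in aorta and called no member. Same-numbered samples did not deviate together (correlations -0.47 and -0.29 in CD115+ cells, -0.15 to 0.17 in aorta). With so few pairs this cannot settle whether a number marks a shared litter or day. The filter on dim probe sets was not run. Over all genes in aorta 1 was called, against 0 to 74 with 1 array left out and 19 with all groups in 1 fit.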
